A study of Arabidopsis thaliana with 12 samples.

Results

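The genes described here are 9 S-domain receptor kinase genes that lie in a tandem array on chromosome 1 of *Arabidopsis thaliana*, out of 27444 annotated protein-coding nuclear genes. They are *AT1G61360*, *AT1G61370*, *AT1G61380* (*SD1-29*), *AT1G61390*, *AT1G61400*, *AT1G61420*, *AT1G61430*, *AT1G61440* and *AT1G61460*. The array was chosen by its own accessibility values, because the start of *SD1-29* holds one of the largest losses of chromatin accessibility in the mutant. The counts and fold changes below are therefore a description of these genes, and no test was run on them. A listed region was assigned to a gene when it overlapped the gene body, the 1 kb upstream of the gene start or the 500 bp past the transcript end site (TES) by at least 1 bp, with gene models of the TAIR10.1 annotation.

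Accessibility was measured by ATAC-seq, in which the Tn5 transposase inserts sequencing adapters into open chromatin. Nuclei were sorted from mature, after-ripened seeds of wild-type Col (Columbia) and of *h3.3ko*, with 2 replicates per genotype. The *h3.3ko* seeds carry CRISPR-Cas9 alleles of *HTR4* and *HTR5* and a T-DNA insertion in *HTR8*, and so have no intact gene for the histone variant H3.3. Because homozygous mutants develop poorly, these seeds came from mutant mothers hemizygous for a rescuing *pHTR5::HTR5* transgene with a seed-specific mCherry marker, and were picked for having no mCherry signal. Whole seeds were used, so a value averages over the tissues of the seed. The sample labels name 12 libraries in 6 groups. Only the mature seed comparison is described here.

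The files hold 3278 regions with decreased and 3436 regions with increased accessibility in *h3.3ko*, each with 1 deposited log2 fold change (mutant over Col) and no value per library. To be listed, a region had to differ by over 2-fold with an adjusted p under 0.05. A gene without a listed region may be unchanged, changed by less, or closed in both genotypes, and these cases cannot be told apart here. The spread between replicates and the sequencing depth behind each region are unknown.

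S-domain receptor kinases are membrane proteins named after the S-locus receptor kinase of *Brassica*, which recognises self pollen. Their outer part carries a bulb-type lectin domain, an S-locus glycoprotein domain and a PAN domain, and a membrane-spanning segment joins it to a cytoplasmic serine/threonine kinase. *SD1-29*, also called LORE, is known as the receptor through which *Arabidopsis* leaves sense medium-chain hydroxylated fatty acids of bacteria and start an immune response. The annotation gives the other 8 members no symbol of their own, and no role is given for them here.

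All 9 members lie on the minus strand, head to tail, within 39501 bp (TAIR10.1 chromosome 1, 22637688 to 22677188). *AT1G61370* overlaps *AT1G61360* (a gap of -157 bp), and *SD1-29* ends at the base next to the annotated start of *AT1G61370* (a gap of 0 bp). Only 38 bp separate *SD1-29* from *AT1G61390*, 111 bp separate *AT1G61390* from *AT1G61400*, and 482 bp separate *AT1G61430* from *AT1G61440*. Other annotated genes lie between the members or overlap them. *AT1G61410*, annotated as XRCC4-like, lies next to *AT1G61400* without overlapping a member. *AT1G61415* and *AT1G61450*, annotated as CAP-gly domain linker proteins, are on the plus strand and overlap *AT1G61420* and *AT1G61440*. The long noncoding RNA gene *AT1G08387*, also on the plus strand, lies almost wholly over *AT1G61420* and reaches into *AT1G61430*.

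The members encode proteins of 749 to 831 residues. Pairwise identity over the 36 pairs ran from 62.4% to 87.0%, with a median of 67.0%. *AT1G61400* and *AT1G61440* were the most alike pair (87.0%), followed by *AT1G61430* and *AT1G61440* (85.9%) and by *AT1G61420* and *AT1G61460* (85.5%). The protein most like *SD1-29* was that of its upstream neighbour *AT1G61390* (79.1%), and the other 7 members shared 64.7% to 69.0% with it. *AT1G61430*, at 84.1% and 85.9% identity to *AT1G61400* and *AT1G61440*, had no listed region while both of those had one. Whether protein likeness goes with listing over the 36 pairs was not tested.

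**Figure D1:**
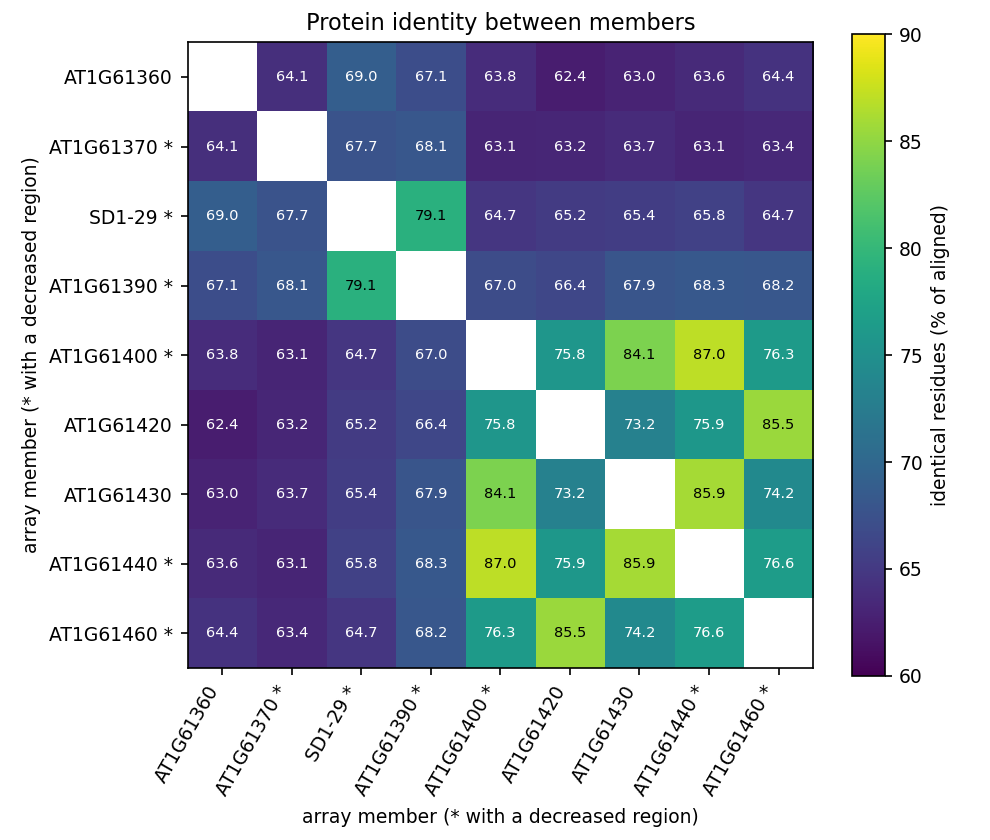
Identity between the proteins of the 9 members, in percent of aligned residues, for all 36 pairs; an asterisk marks a member with a decreased region. The block of *AT1G61400*, *AT1G61420*, *AT1G61430*, *AT1G61440* and *AT1G61460* holds the high values, up to 87.0%, and *SD1-29* stands apart from it, with its highest value (79.1%) to *AT1G61390*.

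Upstream of the coding sequences, the best shared short stretch was looked for, a step that returns 1 window by design. Longer matches between pairs of members are given below. Among all 30-base windows of the 900 bp before the first coding base of *SD1-29*, the window that best matched the same flanks of the other 8 members was taken, a search made after the data had been seen. Of its 30 bases, 17 were identical in all 9 members and are in capitals below. The lines read 5′ to 3′ on the minus strand, the strand of the genes.

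AT1G61360: tAtGCAcTgaAtgTGTTcGacgAAATGacT
AT1G61370: tAtGCAcTgaAtgTGTTcGatgAAATGcgT
SD1-29: tAtGCAtTgaAtgTGTTcGatgAAATGccT
AT1G61390: tAcGCAcTaaAcgTGTTtGatgAAATGccT
AT1G61400: tAtGCAtTacAagTGTTcGatgAAATGccT
AT1G61420: tAtGCAcTgcAagTGTTcGaggAAATGtcT
AT1G61430: tAtGCAtTtcAaaTGTTcGgtaAAATGccT
AT1G61440: aAtGCAtTacAagTGTTcGgtgAAATGccT
AT1G61460: tAtGCAcTgcAagTGTTcGaggAAATGccT

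In *SD1-29* the stretch lies 457 to 486 bp before the first coding base (TAIR10.1 chr1:22649858-22649887). The distance of its near edge in the other members ran from 289 bp in *AT1G61460* to 729 bp in *AT1G61370*. The other members equalled *SD1-29* at 24 (*AT1G61430*) to 28 (*AT1G61370*) of the 30 bases. A window with at least 24 equal bases was found in the flanks of 14 of 27434 other protein-coding genes (0.051%). The only S-domain gene among these was *AT1G61500*, with 27 equal bases. It lies near the array on the same strand, at chr1:22689623-22693799. The stretch was inside a decreased region at *AT1G61370*, *SD1-29*, *AT1G61400* and *AT1G61440*, and outside any at the other 5 members. The window was picked for its match to all members, so its presence in each of them is no finding. The limit of 24 was set by the lowest match among the members, so all 9 reach it by construction. The share in other genes is therefore no measure of how particular the stretch is to the array.

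A decreased region was listed at 6 of the 9 members and an increased region at 0. Over all protein-coding genes, 15.8% had a decreased region and 18.1% an increased region in the same window. Nothing is read from either count of members, since the array was selected for a large loss. The 6 members share 5 regions, called R1 to R5 here by their order on the chromosome, because neighbours lie so close that R1 and R2 each fell into the windows of a pair of members. The decreased region covered the annotated gene start at 4 of 9 members (*AT1G61370*, *SD1-29*, *AT1G61400* and *AT1G61440*), against 8.26% of all protein-coding genes. With the start of the transcript with the longest coding sequence in its place, the count was 2 of 9 (*AT1G61370* and *AT1G61440*), against 7.72%. Nothing is read from these counts either, since the array was picked by the *SD1-29* start.

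**Figure D2:**
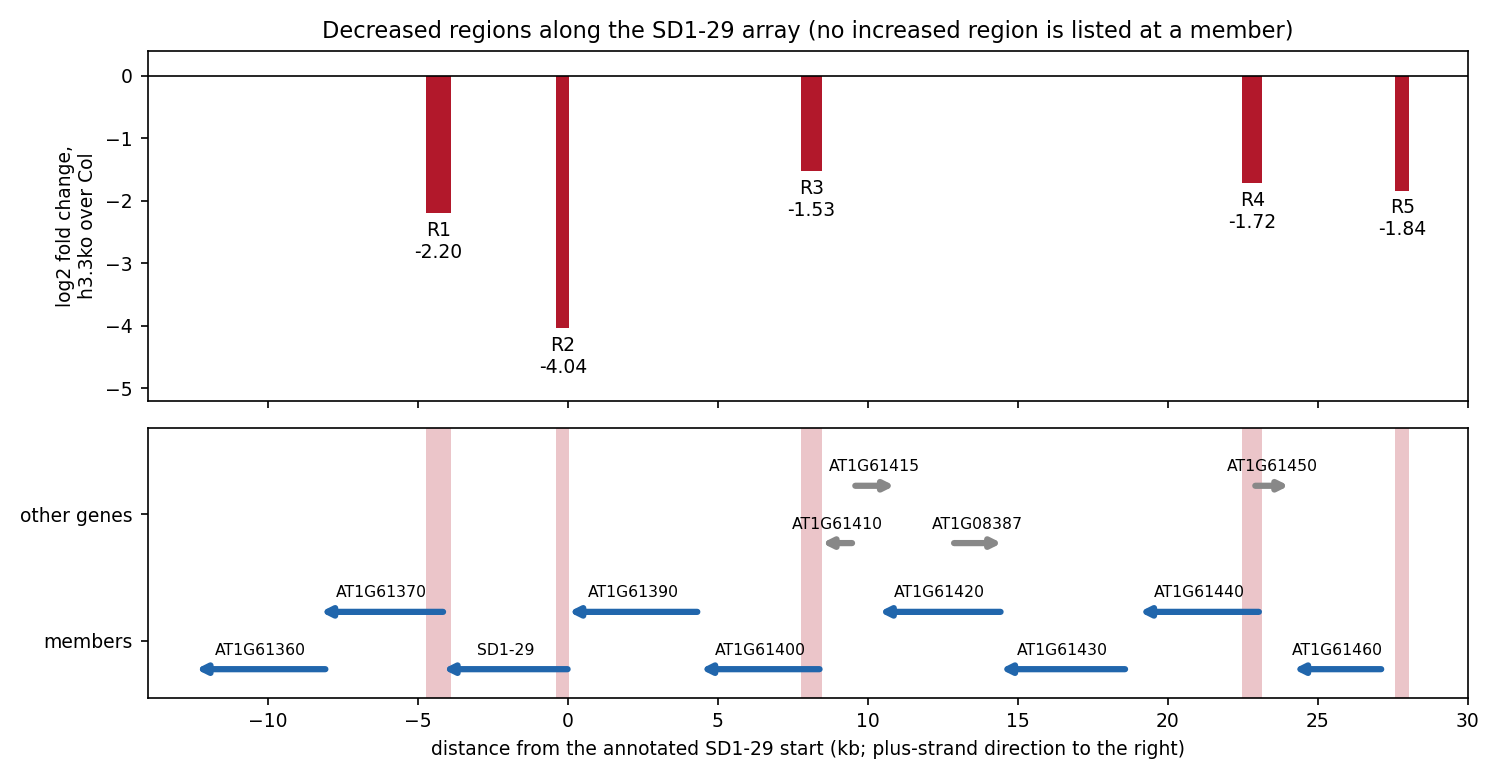
Upper panel, deposited log2 fold change (mutant over Col) of the 5 decreased regions, drawn to scale along the array in kb from the annotated *SD1-29* start; lower panel, members (blue) and other genes between them (grey), with arrows pointing in the direction of transcription and the regions shaded. The deepest bar, R2 at -4.04, sits on the *SD1-29* start, and the stretch over *AT1G61420* and *AT1G61430* holds no region.

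R2, at the start of *SD1-29*, had a deposited log2 fold change of -4.04, an accessibility 16.5-fold lower in *h3.3ko* than in Col. It was the third largest loss of the 3278 decreased regions (rank 3), whose median was -1.89 and whose extreme was -4.17. It spans chr1:22649691-22650130 and is 440 bp wide, with 33.9% GC against a median of 36.2% for the list. Of its length, 382 bp lie in the annotated 5′ untranslated exon sequence of *SD1-29* and 58 bp upstream of the gene start. The last 20 bp of those are also the end of *AT1G61390*, and the other 420 bp of R2 lie past the TES of that gene. *AT1G61390* was thus counted through both its gene body and the 500 bp past its TES.

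The annotation gives *SD1-29* 2 transcript starts, 551 bp apart, and R2 covers 1 of them. It lies over the farther start, at 22650072, and at -609 to -170 bp from the nearer one, at 22649521, where the transcript with the longest coding sequence begins. Both readings place R2 before the coding sequence, 290 to 729 bp upstream of the first coding base. Between the farther start and the end of *AT1G61390* lie 38 bp outside any annotated exon, shown here because they are the whole gap between the genes at the deepest loss (chr1:22650073-22650110, minus strand, TAIR10.1). Capitals mark TATAAA on both strands, where its copies overlap.

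R2 gap: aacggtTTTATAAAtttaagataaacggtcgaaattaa

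R1, over the start of *AT1G61370*, had the next lowest value, -2.20 (4.6-fold lower, rank 933). It spans chr1:22645365-22646171 and at 807 bp was the widest of the 5 regions, against a list median of 497 bp. It covers both annotated transcript starts of *AT1G61370*, with 558 bp in its 5′ untranslated exon sequence, and its other 249 bp lie in the 3′ untranslated exon sequence of *SD1-29*. *SD1-29* was thus the only member with listed losses at both ends, R2 at its start and R1 over its TES.

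R3, at *AT1G61400*, had the value nearest 0 of the 5 regions, -1.53 (2.9-fold lower, rank 2463). It spans chr1:22657836-22658556 over 721 bp, of which 634 bp lie in 5′ untranslated exon sequence of *AT1G61400* and 5 bp in the 3′ end of *AT1G61410*. It covers the farther of the 2 annotated starts of *AT1G61400* and ends 62 bp before the nearer one, where coding sequence begins at once.

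R4, at *AT1G61440*, had a value of -1.72 (3.28-fold lower, rank 2029). It spans chr1:22672559-22673219 over 661 bp and lies over the start of *AT1G61440*, which overlaps the start of the divergent gene *AT1G61450*. The loss cannot be assigned to 1 gene of this divergent pair. R5 had a value of -1.84 (3.57-fold lower, rank 1762), spans chr1:22677660-22678130 over 471 bp, and lies 472 to 942 bp upstream of *AT1G61460*. It also covers the start of *AT1G61470*, annotated as a ribonuclease H-like protein, so that its placement at *AT1G61460* rests on the 1 kb window.

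**Figure D3:**
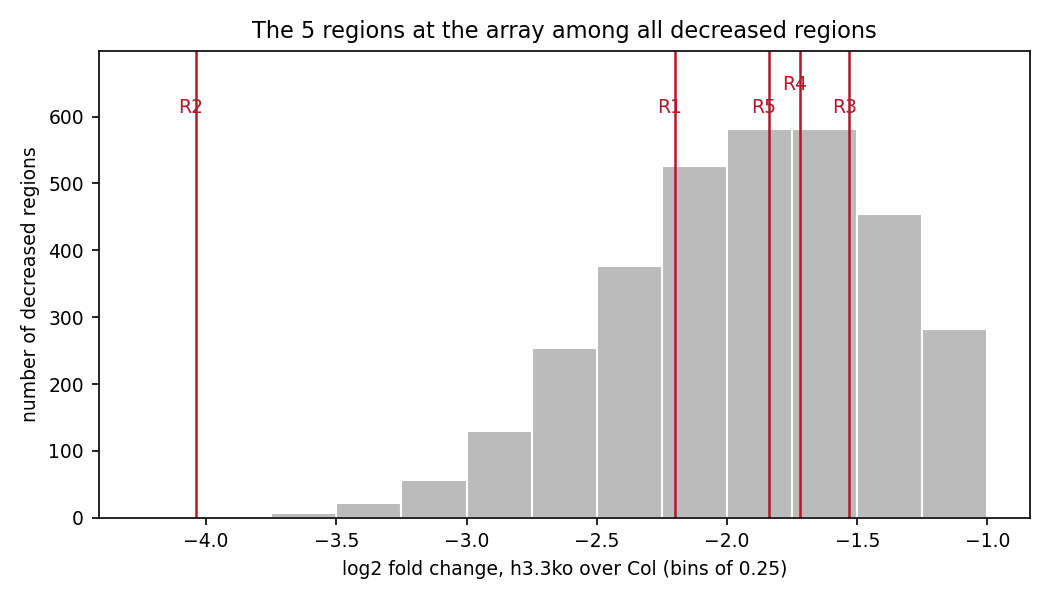
Number of decreased regions by deposited log2 fold change in bins of 0.25, with red lines at the 5 regions of the array. R2 (-4.04) lies at the far left end, and R1 (-2.20), R5 (-1.84), R4 (-1.72) and R3 (-1.53) lie in the body of the list, near its median of -1.89.

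The 5 regions held no coding bases of any member. Each of them ended before the coding sequence of the gene whose start it covered or preceded, at 218 bp from the first coding base for R1, 290 bp for R2, 62 bp for R3, 236 bp for R4 and 472 bp for R5. Their far edges lay 1024, 729, 782, 896 and 942 bp upstream in the same order. On this scale all 5 regions covered the stretch from 472 to 729 bp before the coding sequence. Its near limit is that of R5, whose placement rests on the 1 kb window. Only regions in or near a gene were counted, so a shared stretch is no finding. *AT1G61460* has 1 annotated transcript, which starts at the first coding base, while the other members have 2 to 13 transcripts.

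**Figure D4:**
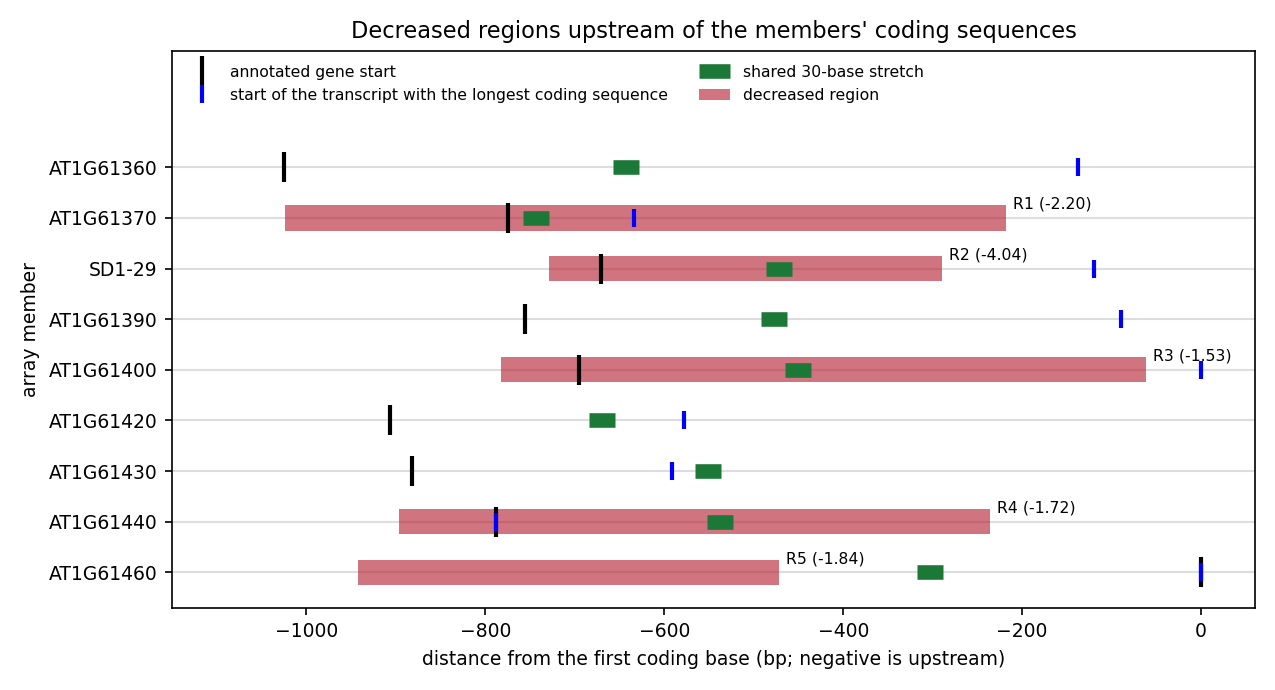
Position of each decreased region (red bars, with log2 fold change) in bp from the first coding base of the member behind it, with the annotated gene start (black tick), the start of the transcript with the longest coding sequence (blue tick) and the shared 30-base stretch (green). Every bar ends upstream of 0, between 62 bp (R3) and 472 bp (R5) before the coding sequence, and the black tick is inside the bar in 4 members.

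The remaining 3 members had no listed region of either kind. *AT1G61360*, the last gene of the array in the direction of transcription, lay 3365 bp from the nearest decreased region. An increased region (chr1:22636225-22636700, log2 fold change 2.57) lay 987 bp past its TES, outside the 500 bp window. This was the nearest increased region to every member, and from *AT1G61460* it was 37567 bp away. The other such members, *AT1G61420* and *AT1G61430*, are neighbours in the middle of the array. The nearest decreased region lay 1903 bp past the TES of *AT1G61420* and 3907 bp upstream of *AT1G61430*.

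Sequence shared before the coding sequences was found both at members with a listed region and at members without one. Whether it is linked to the losses was not tested. In the 800 bp flanks, 17 of the 36 pairs gave a blastn match at an E-value of at most 1e-05. *AT1G61400* and *AT1G61440* matched over 321 bases at 77.3% identity, 398 to 698 bp and 484 to 786 bp before their first coding bases, inside R3 and R4. *AT1G61430*, which had no listed region, matched *AT1G61400* over 671 bases at 68.4% and *AT1G61440* over 281 bases at 72.6%. *AT1G61420*, also without one, matched *AT1G61460* over 315 bases at 75.9%. *SD1-29* matched 4 members over only 39 to 47 bases, at 83.0% to 93.5%, each match lying over the shared 30-base stretch. It gave no match to *AT1G61390*, the member with the protein most like its own.

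Reads of like genes can be hard to place, so the words of sequence that occur once in the genome were counted. All words of 150 bases (the read length) and of 50 bases in R1 to R5 occurred once in the nuclear genome. In the gene bodies, 95.4% (*AT1G61400*) to 100% of the 50-base words were unique, with up to 4 copies, and all 150-base words were unique in every member.

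Exact matches to 4 short motifs were counted on both strands, in the 300 bp promoter of each member (250 bp before to 50 bp after the annotated start) and in the regions. These were CACGTG (the G-box, bound by bZIP and bHLH factors), TGACG (the core bound by TGA-type bZIP factors), TTGAC (the core of the W-box, bound by WRKY factors) and TATAAA (the TATA box). The W-box core and the TGA core can overlap, by 4 bases. The W-box core was in the promoters of 5 of 9 members and 50.5% of all protein-coding genes, the TGA core in 2 of 9 and 23.1%, the TATA box in 3 of 9 and 52.1%, and the G-box in 1 of 9 (*AT1G61400*) and 7.68%. All 5 regions held the W-box core and the TGA core, as 71.1% and 53.6% of all decreased regions did. These shares do not allow for width: R1 (807 bp), R3 (721 bp) and R4 (661 bp) were wider than the list median of 497 bp. The G-box was in R3 only (33.9% of decreased regions), and the TATA box in R1, R2 and R5 (58.5%).

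A few of these matches are shown in their surroundings, with the motif in capitals, 5′ to 3′ on the minus strand. R3 and R4 carry the W-box core in nearly the same setting, at chr1:22658345-22658373 and chr1:22672985-22673013. R2 holds a TGA core, which here reads in reverse complement, at chr1:22649940-22649968. R5 has a W-box core at chr1:22677661-22677689, where it overlaps a TGA core, and the single G-box of the array's regions is in R3 at chr1:22658417-22658446.

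R3 W-box core: ggtacaccaataTTGACtgttgaagtcag
R4 W-box core: ggcacaccaatgTTGACtgttgaagtcag
R2 TGA core: tttctgagtcgtCGTCActgtctctgtct
R5 W-box core: tgggttagtggcTTGACgacacaagtcaa
R3 G-box: tttgcaatctttCACGTGcgttcgaaattg

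The family outside these 9 genes numbered 23 by annotated product name. Of these, 2 had a decreased and 3 an increased region, against the 15.8% and 18.1% of all protein-coding genes. The decreased regions were at *SD2-5* (*AT4G32300*), where the region covered the gene start (log2 fold change -1.94), and at *AT4G27300*, at -516 to -199 bp from the start (-1.87). Both lay near the list median. Neither was as low as R1 (-2.20) or R2 (-4.04), but both were lower than R5 (-1.84), R4 (-1.72) and R3 (-1.53). The increased regions were inside *AT5G35370* (2.83), over the start of *AT1G11330* (1.99) and at -1197 to -237 bp from the start of *B120* (*AT4G21390*, 1.79), all below the median of 2.97 for increased regions. Further along chromosome 1 on the upstream side of *AT1G61460*, 5 more family genes, *AT1G61480*, *AT1G61490*, *AT1G61500*, *AT1G61550* and *AT1G61610*, had no listed region. Of these, *AT1G61480*, *AT1G61490* and *AT1G61500* lie close by on the minus strand, at 22681256 to 22693799, so the run of family genes continues past the 9 members. All 5 were picked out after their values had been seen.

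**Figure D5:**
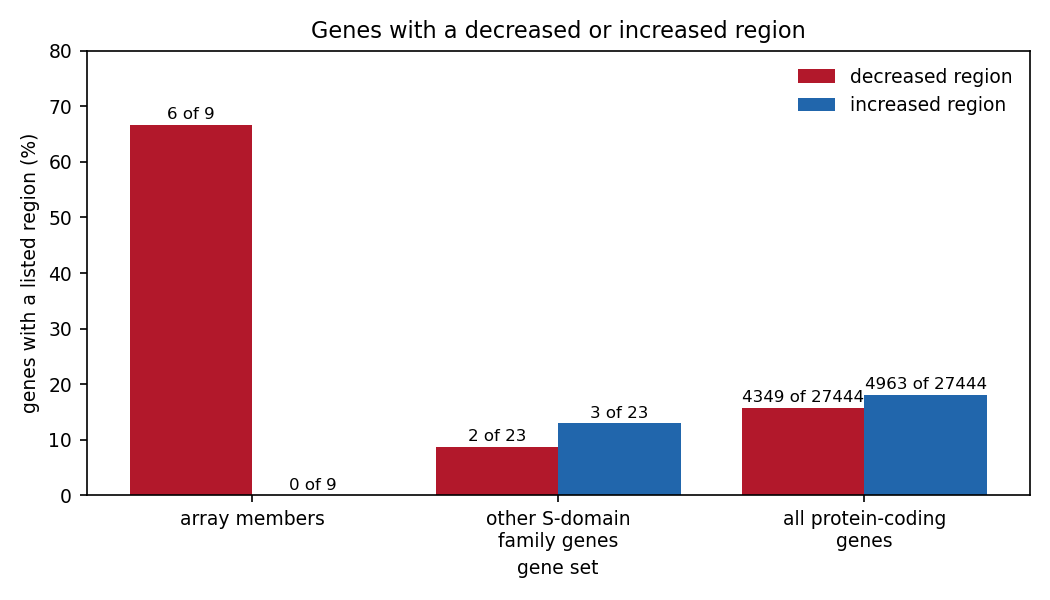
Share of genes, in percent, with a decreased (red) or increased (blue) region in the gene body, 1 kb upstream or 500 bp past the TES, for the 9 members, the 23 other S-domain family genes and all 27444 protein-coding genes, with the counts above the bars. The members stand at 6 and 0 of 9, a count fixed in part by how the array was chosen, and the other family genes at 2 and 3 of 23.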

How the data were processed

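Nuclei from mature Col and *h3.3ko* seeds were profiled by ATAC-seq in 2 replicates per genotype, grouped by the sample titles. The authors used fastp (0.20.1) for trimming, Bowtie2 for alignment to TAIR10 and Picard (2.24.0) for duplicates, and dropped organelle reads. MACS2 peaks present in both replicates were merged over the genotypes and scored with deepTools. The deposited value used here, 1 per region, comes from a column without a name and was read as a log2 fold change (mutant over Col). It is the authors' own comparison and is given as a description, since the lists hold no other measurement. The statistical test, any shift for the Tn5 offset and the depth per region are not given in the sources used here. Filtering on both replicates favours regions open in at least 1 genotype, and the 2-fold limit leaves smaller changes out. Value columns of other samples numbered 0.

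Regions were joined to RefSeq gene models of TAIR10.1, whose nuclear sequence is that of TAIR10. As a check of the coordinates, decreased regions covered 8.26% of gene starts, and 1.46% and 1.38% after a shift by 1000 bp either way. Gene start means the 5′ end of the annotated gene, and the first coding base is that of the longest coding sequence. Proteins were aligned globally, and 800 bp flanks compared with BLAST 2.17.0. Tables were made with Python 3.11.15, numpy 2.4.6 and Biopython 1.88, and the overlap counting was checked on simulated data with 200 planted regions. The S-domain family was taken from annotated product names. The text names all 9 members, the genes between them or under their regions, and at most the 3 largest losses and gains among other family genes. Beyond this rule it names 5 family genes without a listed region, further along the chromosome, chosen after their values were seen. Alternatives were other gene windows, overlap rules, a 4-fold limit, and assignment to the gene with the nearest start (decreased regions) or end (increased regions). Others were a family defined by protein similarity, shorter sequence words, other windows for motifs and another choice of start site. The members, lists and comparisons were chosen with earlier results of these data known.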

Additional observations from a re-analysis of the deposited data

How the results depend on the processing

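Of 60 alternative values, 42 stayed within 1.5 times the reported value and 18 moved further, where motif counts over regions and promoters were compared as shares. The 60 include increased counts of members that were 0 throughout, unique shares of 100% throughout, and shares of all protein-coding genes. The tally is therefore no measure of how stable the array's own counts are. With only regions past 4-fold, 3 members had a decreased region (*AT1G61370*, *SD1-29* and *AT1G61390*), against 7.34% of protein-coding genes, and the other family genes fell to 0 decreased and 1 increased. With each decreased region given only to the gene with the nearest start, 3 members kept one (*AT1G61370*, *SD1-29* and *AT1G61400*), against 10.4% of genes. With each increased region given only to the gene with the nearest end, 11.2% of genes had one, and other family genes came to 0. By this rule a gene can lose a region that lies inside it or over its start, if another gene ends nearer. With the gene body alone, 5 members had a decreased region against 10.5% of genes, and 1 other family gene had one. No alternative gave a member an increased region, but all of them draw on the same list of increased regions. In the regions in place of the promoters, TGACG was in 5 of 5 against 2 of 9, TTGAC in 5 of 5 against 5 of 9, TATAAA in 3 of 5 against 3 of 9 and CACGTG in 1 of 5 against 1 of 9. With the start of the longest coding transcript in place of the gene start, an alternative chosen after seeing the data, 2 members had a covered start against 4. In promoters placed there CACGTG was in 0, TGACG in 1, TTGAC in 6 and TATAAA in 0 of 9 members. The share of all promoters placed there is not given here, so these motif counts have no background beside them. No paired analysis was possible because the lists hold no value per replicate, and for the same reason no replicate could be left out.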
